A study of Mus musculus with 79 samples.

Results

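H3K4me3, trimethylation of lysine 4 on histone H3, was mapped in the hypothalamus of 3 adult +/+ mice and compared with the input chromatin of the same animals. The libraries were picked by their column labels in the ChIP table, H3K4me3 and input of +/+ animals 1, 2 and 3, and are 6 of the 79 samples in the series. The series followed mice carrying D329A, a substitution in the PWWP domain of the DNA methyltransferase DNMT3A, and mice of other genotypes from the same breeding. The +/+ mice were 14 weeks old, on the C57BL/6Babr background, and came from the same breeding scheme as the Δ/D329A mice, which carry a deleted Dnmt3a allele and the D329A allele, with Dnmt3a fl/+ Zp3-Cre females (Cre expressed from the oocyte promoter of Zp3) mated with D329A/+ males. Transcript levels came from 5 +/+ RNA-seq libraries of the same tissue and age, and 3 Δ/D329A animals with H3K4me3 and their own inputs were used only to look at the same regions in other mice.

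H3K4me3 is laid down by the SET1 and MLL complexes, which are drawn to unmethylated CpG-rich DNA and to initiating RNA polymerase II, and is removed by KDM5 demethylases. It sits on nucleosomes around the start sites of active genes, and at CpG islands it is often present when the gene is silent. In embryonic and neural cells, promoters of developmental regulators can hold it together with the Polycomb mark H3K27me3. Broad H3K4me3 domains have been linked to genes of cell identity.

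The 3 H3K4me3 libraries held 15811942, 15035464 and 15223889 uniquely mapped reads, and the inputs 14708936, 21579335 and 23890359. Values are reads scaled to the uniquely mapped reads of each library (RPM) in 2 kb tiles, all of the same length. Tiles called enriched covered 2.26% of the autosomal tiles and held 60.1%, 56.9% and 64.1% of the autosomal H3K4me3 reads, against 2.05%, 2.18% and 2.06% of the input reads. The median tile was therefore lower than input, by −1.66, −1.50 and −1.95 on the log2 scale in animals 1, 2 and 3, and every log2 difference below contains this offset. The RNA and ChIP libraries were not from the same mice. The 5 RNA libraries had Xist, the RNA that coats the inactive X, at 3.80 to 4.59 log2 RPKM, whereas the ChIP animals had H3K4me3 at the Y-linked promoter of Eif2s3y (14.5, 12.9 and 13.6 RPM). At Zp3, whose promoter drives the Cre transgene of this cross, input reached 13.9 and 13.04 RPM in animals 1 and 2 and 0.837 RPM in animal 3, and H3K27me3 in the same animals was 55.3, 55.4 and 0.892 RPM, so Zp3 was read as uncertain.

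Promoters fell into a marked and an unmarked class with little between them. A promoter value is the mean of the 2 kb tiles centred from 1500 bp before to 500 bp after the listed start, and 24614 promoters had enough input to be tested. H3K4me3 was higher than input at 14860 promoters (60.4%) and lower at 8523 (34.6%) at an adjusted p under 0.05 in limma with the animal as a block, and 1231 were not called. After centring on the median tile the calls were 16722 higher and 915 lower, and with TMM scaling of the recovered reads 11511 higher and 11442 lower, so the split between higher and lower depends on the scaling. The log2 difference from input was under 0 at 9254 promoters, from 0 to 2 at 1735, and 2 or more at 13625. Promoters called higher had a median of 17.3 RPM against 0.752 RPM in input, and those called lower 0.172 RPM against 0.896 RPM. The animals gave nearly the same ranking, with Pearson's r across promoters of 0.986, 0.987 and 0.986 for the 3 pairs of H3K4me3 libraries. These are correlations across genes, which are not independent replicates.

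The marked and unmarked classes followed CpG content. Of 10713 CpG-rich promoters, 10490 (97.9%) were called higher, with a median of 19.8 RPM. Intermediate promoters were called higher in 3292 of 5351 cases (61.5%) with a median of 4.19 RPM, and CpG-poor promoters in 1078 of 8550 (12.6%) with a median of 0.196 RPM. The number of CpG dinucleotides in the promoter window and its H3K4me3 level had a Spearman's rho of 0.82 across the 24614 promoters, given as a description.

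**Figure D1:**
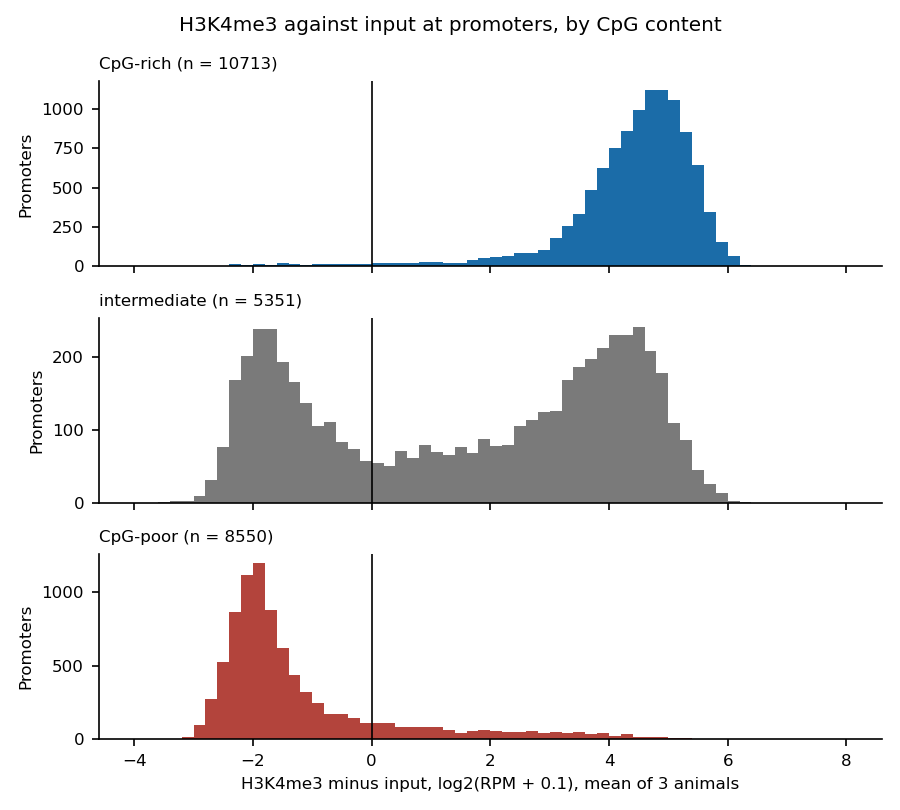
Histograms of the log2 difference between H3K4me3 and input, log2(RPM + 0.1), at the promoters tested, one panel for each CpG class, with the number of promoters on the vertical axis. CpG-rich promoters lie around a median of 4.605, CpG-poor promoters around −1.77, and intermediate promoters form both peaks.

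Marked promoters were more frequent at higher transcript levels, whereas their level differed little once genes were expressed. H3K4me3 was called higher at 16.2% of 8048 genes under −3.3 log2 RPKM, at 56.6% of 5280 genes from −3.3 to 0, and at 92.8% of 8180 genes from 0 to 3. It was called higher at 95.9% of 2964 genes from 3 to 6, and at 95.1% of the 142 genes of 6 or more. The median level in the 3 expressed classes was 17.7, 20.9 and 21.0 RPM. Spearman's rho between promoter H3K4me3 and transcript level was 0.71 across all promoters and 0.15 across the 10406 expressed genes (0 log2 RPKM or more in each of the 5 RNA libraries). Both are descriptions across genes from libraries of different mice. Among genes under −3.3 log2 RPKM, 644 of 818 CpG-rich promoters (78.7%) were still called higher, with a median of 6.05 RPM, against 178 of 5513 CpG-poor promoters.

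The shape of the mark differed between expression classes as well. In the 3 animals the mean profile of genes at 0 to 3 log2 RPKM was highest at the start (24.5, 23.4 and 25.9 RPM). For the 142 genes of 6 or more log2 RPKM it was highest 1000 bp downstream (33.8, 32.0 and 35.7 RPM). The level 2000 bp downstream divided by that 2000 bp upstream was 0.829, 0.843 and 0.820 for genes under −3.3, 3.18, 3.10 and 3.14 for genes from 0 to 3, and 5.06, 4.91 and 5.003 for genes from 3 to 6. At genes of 6 or more it was 9.21, 8.80 and 8.87. The asymmetry towards the gene body thus stood in the same order as the transcript classes in each animal, whereas the upstream level at 2000 bp stayed between 2.28 and 2.77 RPM in all 3 expressed classes. The class of 6 or more log2 RPKM includes Gm10800 and Gm10801, whose input is high, as given with the expressed genes that lack the mark.

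**Figure D2:**
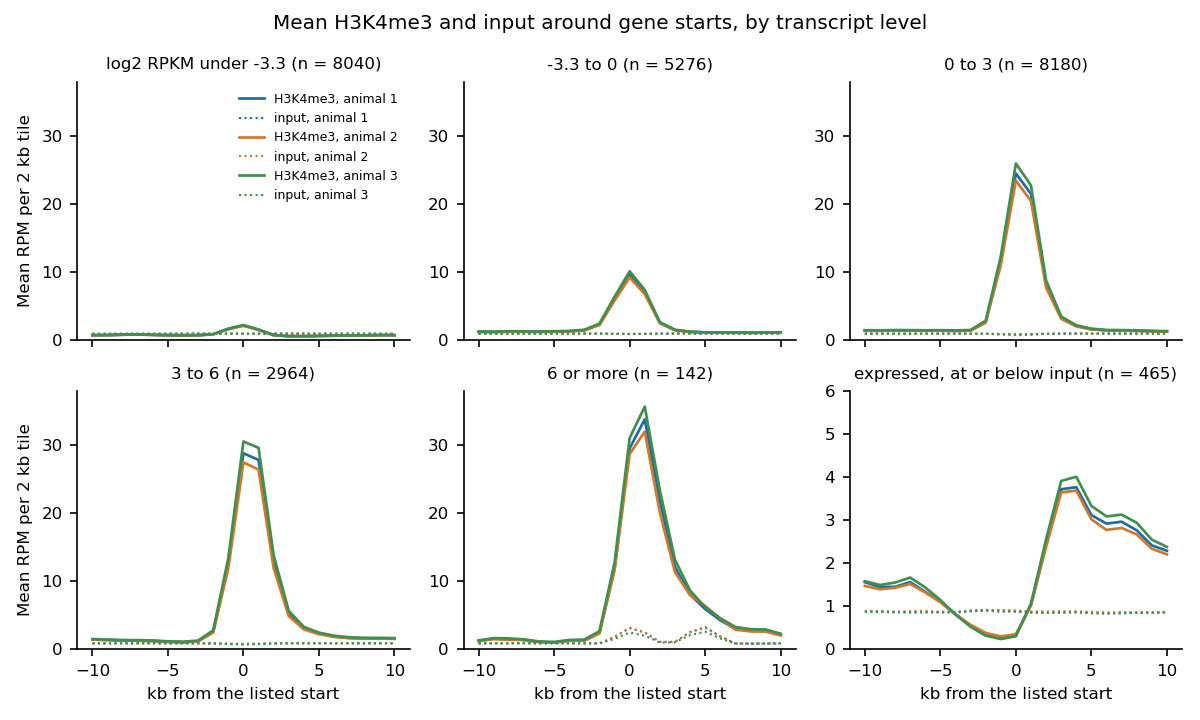
Mean RPM (vertical axis) against distance from the listed start in kb (horizontal axis), one panel for each transcript class and one for expressed genes at or below input, with solid lines for H3K4me3 and dotted lines for input in each animal. The peak moves 1 kb downstream in the class of 6 or more log2 RPKM, and in the last panel (465 genes with a mean input of at most 3 RPM, on a smaller scale) the lowest H3K4me3 lies around the start and the highest 4 kb downstream.

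The strongest promoters were near 50 RPM in every animal. Over all promoters tested the median was 7.38 RPM and the highest 1% began at 40.2 RPM. The highest mean was at Trpm8, which encodes a cold-sensing cation channel of sensory neurons, with 56.0, 55.04 and 62.4 RPM in animals 1, 2 and 3. Its input was also high, at 4.35, 4.94 and 4.16 RPM, so the log2 difference was 3.66, and its transcript was at −5.31 log2 RPKM. The window holds the start of an expressed neighbour, Hjurp, which encodes the histone chaperone of centromeric CENP-A. Pcdh9, a protocadherin of neuronal contacts, had 52.9, 49.0 and 57.6 RPM at a transcript level of 4.87 log2 RPKM. Ankmy2 had 50.6, 47.8 and 54.0 RPM, and the expressed gene Bzw2 starts in the same window. The other members of the top 10 were Gm7854, 5031425E22Rik, Yod1 (a deubiquitinase), AB041803, Gm4793, BC042782 and Klhl28, with means down to 49.99 RPM. Of the 10, 4 shared the window with the start of another expressed gene (Hjurp, Mll5, Bzw2 and Fam179b), and 4 were below 0 log2 RPKM themselves.

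Joining tiles at 4 times input or more in each of the 3 animals gave 16264 autosomal domains covering 72.8 Mb. As a test of single tiles, 55540 of 1143615 non-overlapping autosomal tiles (4.86%) were called higher than input and 1001964 (87.6%) lower, the latter a call that holds the offset of the median tile. Domains had a median length of 4000 bp, 367 were 10 kb or longer, 46 were 15 kb or longer and 10 were 20 kb or longer. Length and level did not go together beyond the shortest classes. The median level was 4.77 RPM in domains of 2000 bp, 14.5 RPM at 3000 to 4000 bp, 21.2 RPM at 5000 to 6000 bp, and 17.8 RPM in domains over 10 kb.

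The longest domain held a microRNA host gene. It spans chr13:83713001-83747000 (GRCm38) and 34 kb, holds the start of C130071C03Rik, a long noncoding RNA, and covers the hairpin of Mir9-2. Its mean H3K4me3 was 27.04, 22.3 and 26.9 RPM against an input of 0.832, 0.890 and 0.822 RPM. All 3 animals were far above input and within 5 RPM of each other. It was also the longest at 8 times input (33000 bp), but at 2 times input and after centring on the median tile, where it reached 35000 and 39000 bp, the longest domains were others of 43000 and 57000 bp. The 3 genes for miR-9, a microRNA of neural progenitors and neurons, encode the same mature sequences. They are shown because all 3 loci lay in domains of 15 kb or more. They are RNA sequences from RefSeq on GRCm38.p6, with the seed, bases 2 to 8, in capitals.
miR-9-5p: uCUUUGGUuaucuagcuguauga
miR-9-3p: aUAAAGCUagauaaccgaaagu

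Mir9-1 lay in a domain of 15 kb (rank 39, with 19.98, 16.1 and 19.8 RPM) and Mir9-3 in one of 16 kb (rank 27, with 18.9, 15.2 and 19.01 RPM). The 3 genes for miR-124, a neuronal microRNA, lay in domains of 10 kb (Mir124a-1), 17 kb (Mir124a-2, rank 17) and 8 kb (Mir124a-3). Apart from the host of Mir9-2, these loci were looked up after the longest domain had been seen. The microRNAs themselves were not measured here.

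Starts of developmental transcription factor genes lay in 5 of the other 9 longest domains. The domain of Sox2, an HMG-box factor of neural stem cells and glia, was 30 kb long (chr3:34637001-34667000) with 15.05, 12.002 and 19.4 RPM. Nr2f2 (27 kb, 20.7, 14.7 and 20.6 RPM) and Nr2f1 (23 kb, 19.6, 15.7 and 21.0 RPM) encode the COUP-TF orphan nuclear receptors. Pou3f2 (24 kb, 14.2, 14.4 and 15.8 RPM) encodes a POU factor of hypothalamic neuroendocrine lineages, and its domain was the most even of these. The domain of 21 kb at Gm11266 (19.4, 13.7 and 14.7 RPM) also holds a GENCODE start of Nfib, a nuclear factor I gene. The domain of Nr2f1 also held the starts of A830082K12Rik and Gm8327.

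The remaining 4 of the 10 longest domains were these. The domain of 24 kb on chromosome 17 covered the starts of Phf1, a Polycomb-associated factor, and Cuta (15.5, 14.2 and 16.8 RPM). Qk, which encodes an RNA-binding protein needed for myelin, had 21 kb with 17.8, 16.6 and 17.1 RPM. The domain of 20 kb at 6430527G18Rik, which also holds a GENCODE start of Irf2bpl, had 15.7, 14.3 and 15.6 RPM. The domain of 20 kb at chr15:85665001-85685000 (21.6, 17.3 and 17.9 RPM) held no start in GENCODE. It lies inside the long noncoding RNA gene Lncppara, 11385 bp after its first start, and 21603 bp before the let-7 gene Mirlet7c-2.

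H3K27me3 in the same animals divided these domains. It averaged 2.90 RPM over the Sox2 domain, 2.42 RPM at Nr2f2, 2.45 RPM at Pou3f2, 1.84 RPM at Nr2f1, 1.57 RPM at Gm11266 and 1.36 RPM at the Mir9-2 domain. It was 0.114 RPM over Phf1 and Cuta, 0.141 RPM at Qk, 0.125 RPM at the Lncppara domain and 0.101 RPM at 6430527G18Rik. H3K27me3 was 1 RPM or more in 18 of the 46 domains of 15 kb or longer (39.1%), in 65 of 321 of 10 to 14 kb (20.2%), and in 23.1% of shorter ones. In bulk tissue, both marks on the same nucleosomes and each mark in different cells cannot be told apart, nor can fewer cells of a type and less mark per cell.

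**Figure D3:**
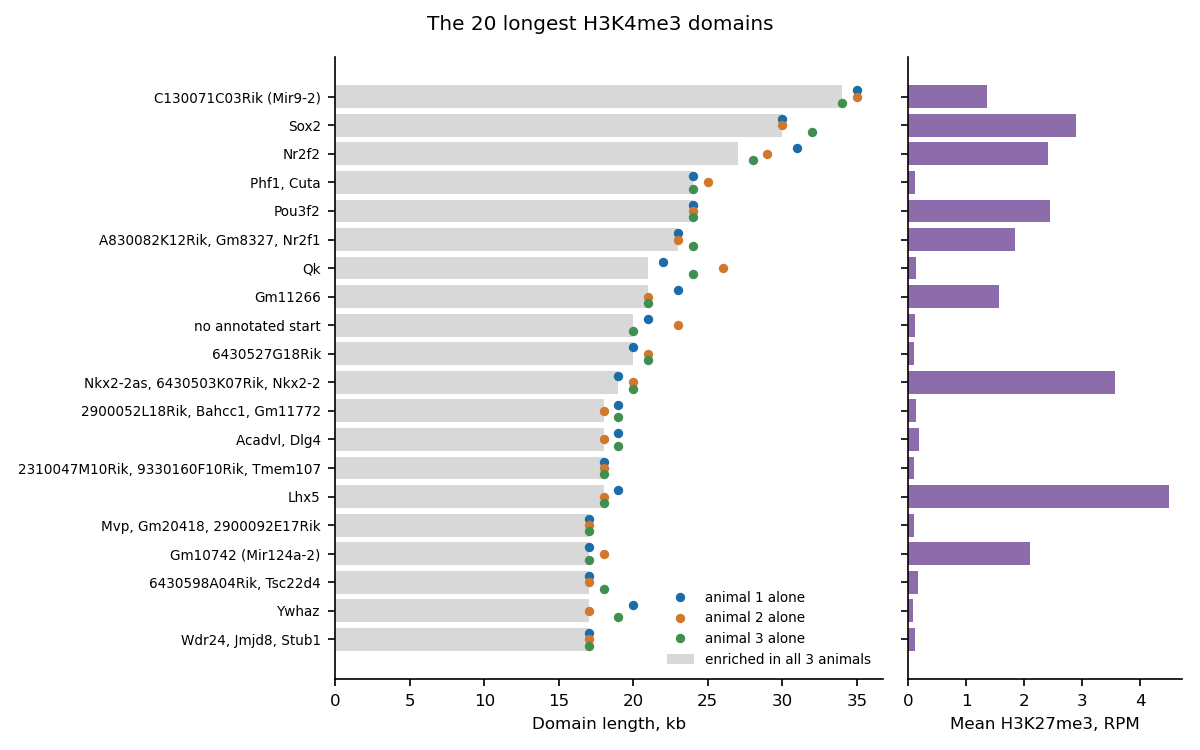
The 20 longest domains named by the genes whose starts they hold, with length in kb (bars for tiles enriched in all 3 animals, dots for the length in each animal alone) on the left and mean H3K27me3 in RPM on the right. The longest spans 34 kb, and H3K27me3 ranges from about 0.1 RPM at Qk and 6430527G18Rik to 2.90 RPM at Sox2 among the first 10.

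The domains recurred in other mice. Of the 16264, 14397 (88.5%) were at 4 times input or more in each of the 3 Δ/D329A animals, including 10 of the 10 longest and 98 of the 100 longest. The Mir9-2 domain was 33 kb long there and the Sox2 domain 20 kb. The H3K4me3 library of Δ/D329A animal 1 held 41.5% of its autosomal reads in the +/+ enriched tiles, against 66.3% and 63.7% in animals 2 and 3. Every animal has to pass the rule, and whether domain lengths differed by genotype was not tested. A transcript start in GENCODE lay in 83.7% of the domains. The 2646 domains without one were weaker, with a median of 6.32 RPM against 18.7 RPM, and 1361 of them were over 10 kb from any such start.

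H3K4me3 was missing from the listed start of 473 of the 10406 expressed genes (4.55%), taken as a promoter at or below input in each of the 3 animals. These starts were CpG-poor in 327 cases, intermediate in 139 and CpG-rich in 7. That is 38.2% of the expressed CpG-poor starts, 7.42% of the intermediate and 0.0912% of the CpG-rich ones. Median transcript levels were 1.53 to 2.16 log2 RPKM in the 3 groups described next, against 2.29 log2 RPKM at the other 9933 expressed genes. In the Δ/D329A animals 404 of the 473 (85.4%) were also at or below their own input in each animal. The median autosomal tile of these animals also lay below input, at 0.376, 0.158 and 0.129 RPM against 0.861, 0.848 and 0.876 RPM.

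For most of them the mark lay elsewhere in the gene. In 267 genes (56.4%) an enriched tile lay further inside the gene, with a median distance of 7928 bp (quartiles 3288 and 20701 bp) from the listed start, and in 237 of these another GENCODE start of the gene was within 1000 bp of an enriched tile. A further 45 genes had an enriched tile within 10 kb of the start, and 161 (34.0%) had none in the listed gene or within 10 kb. Some of the 161 had other GENCODE starts with an enriched tile within 1000 bp, for instance 4 of 4 such starts at Grm5, against 0 of 8 at Tln2. RefSeq gave a start for 287 of the 473 genes. It was over 1000 bp from the listed one for 177, and 163 of those had an enriched tile at the RefSeq start. It was within 1000 bp for the other 110, of which 63 had an enriched tile at the RefSeq start and 47 had none. Among these 47 were Pmch, Oxt, Avp, Pomc, Xist and the globin genes Hba-a1 and Hba-a2. The RNA libraries and the ChIP animals differed in sex, as given above, so Xist is listed here without being a case of a transcribed start that lacks the mark.

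Among the 10 most abundant transcripts of this group, Hsp90aa1, Gpx4 and Clta had the mark inside the gene. Hsp90aa1, the inducible cytosolic HSP90, had 0.474, 0.565 and 0.460 RPM at its listed start and its first enriched tile 5728 bp downstream. The distances were 5834 bp for Gpx4, a lipid hydroperoxide reductase, and 7548 bp for Clta, a clathrin light chain. Gm10800 and Gm10801 had inputs of 194, 184 and 140 RPM and of 51.2, 47.9 and 37.2 RPM, far above other promoters, and their values are uncertain. The beta-globin gene Hbb-b1 (0.0949, 0.366 and 0 RPM) and the processed pseudogene Gm5805 (0.126, 0.0998 and 0.0657 RPM) had no enriched tile in the gene or within 10 kb. Reads of both kinds of gene can be shared with near-identical copies. The others were Pmch, Oxt and Avp. Among genes with no enriched tile in the listed gene or within 10 kb, the next in transcript level were 3. These were Slc8a1, a sodium-calcium exchanger (0.759, 0.299 and 0.197 RPM), AC242409.1 and the imprinted gene Usp29 (0.221, 0.299 and 0.361 RPM). Other GENCODE starts were marked at Slc8a1 (1 of 3) and at Usp29 (7 of 8). The input at AC242409.1 was high too, at 11.4, 13.1 and 9.92 RPM.

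Pmch, Oxt and Avp are neuropeptide genes of the hypothalamus. Neuropeptide genes are transcribed at high levels in small, scattered groups of neurons, such as the magnocellular neurons for oxytocin and vasopressin and lateral hypothalamic neurons for melanin-concentrating hormone (Pmch) and orexin (Hcrt). Of 30 such genes, 16 were called higher than input, 10 lower and 4 neither, against 60.4% higher over all promoters. The median promoter level was 1.71 RPM against 7.38 RPM over all promoters, while the median transcript level was 2.87 against −0.67 log2 RPKM. The highest was Adcyap1, the PACAP precursor, with 6.74, 8.18 and 6.60 RPM. Npy, the orexigenic neuropeptide Y of arcuate neurons, had 6.29, 6.88 and 5.75 RPM. No mean of the 30 reached the all-promoter median.

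The 250 bases before the RefSeq start are printed for 3 peptide genes at or below input in each animal and for Hcrt. Hcrt is a peptide gene of like transcript level that was called higher. Sox2 and the immediate early gene Jun are printed as marked CpG-rich starts. CpG dinucleotides are in capitals, each sequence reads 5′ to 3′ on the gene's strand, and coordinates are of GRCm38.p6. They run over chr10:88090822-88091071 (plus strand) for Pmch, chr2:130575919-130576168 (plus) for Oxt, chr2:130582589-130582838 (minus) for Avp, chr11:100762932-100763181 (minus) for Hcrt, chr3:34649745-34649994 (plus) for Sox2 and chr4:95052223-95052472 (minus) for Jun.
Pmch: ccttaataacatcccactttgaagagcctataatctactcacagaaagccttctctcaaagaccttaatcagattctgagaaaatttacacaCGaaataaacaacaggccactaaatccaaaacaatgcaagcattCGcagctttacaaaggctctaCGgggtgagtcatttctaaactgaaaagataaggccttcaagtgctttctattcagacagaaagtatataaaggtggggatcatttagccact
Oxt: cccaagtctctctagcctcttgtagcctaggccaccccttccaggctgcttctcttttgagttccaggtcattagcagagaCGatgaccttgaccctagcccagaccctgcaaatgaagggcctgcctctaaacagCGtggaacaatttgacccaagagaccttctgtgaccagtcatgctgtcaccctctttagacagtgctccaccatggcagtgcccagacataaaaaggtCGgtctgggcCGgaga
Avp: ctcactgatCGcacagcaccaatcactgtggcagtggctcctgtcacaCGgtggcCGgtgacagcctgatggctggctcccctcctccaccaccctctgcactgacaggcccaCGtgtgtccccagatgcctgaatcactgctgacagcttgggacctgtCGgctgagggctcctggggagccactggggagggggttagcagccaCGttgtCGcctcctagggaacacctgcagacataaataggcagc
Hcrt: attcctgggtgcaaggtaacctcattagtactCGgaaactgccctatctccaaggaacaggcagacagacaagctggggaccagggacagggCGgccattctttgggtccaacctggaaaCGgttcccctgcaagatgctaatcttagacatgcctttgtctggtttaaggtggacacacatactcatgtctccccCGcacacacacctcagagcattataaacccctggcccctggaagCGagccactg
Sox2: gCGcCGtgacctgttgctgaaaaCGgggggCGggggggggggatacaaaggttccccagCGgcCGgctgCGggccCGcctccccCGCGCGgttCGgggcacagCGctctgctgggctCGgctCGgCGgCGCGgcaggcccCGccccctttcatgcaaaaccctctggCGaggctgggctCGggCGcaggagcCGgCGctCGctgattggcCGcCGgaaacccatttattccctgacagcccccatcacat
Jun: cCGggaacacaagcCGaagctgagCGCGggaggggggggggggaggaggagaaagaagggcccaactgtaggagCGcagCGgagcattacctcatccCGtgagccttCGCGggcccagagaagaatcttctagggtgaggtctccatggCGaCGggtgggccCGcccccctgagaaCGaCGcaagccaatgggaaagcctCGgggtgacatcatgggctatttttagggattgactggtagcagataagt
The stretches hold 3 CpGs in Pmch, 4 in Oxt, 7 in Avp and 5 in Hcrt, against 27 in Sox2 and 15 in Jun. Over the 15613 tested promoters with a RefSeq sequence the median was 10, with 16 among promoters called higher and 2 among those called lower. Among 288 expressed genes without the mark at the listed start it was 8. At most 5 CpGs were found in 36.3% of all, in 12.2% of those called higher, in 83.9% of those called lower and in 40.3% of the expressed genes without the mark. For this last group the bases precede a RefSeq start that was over 1000 bp from the listed one for 177 genes. An enriched tile lay at that RefSeq start in 163 of the 177, and in 63 of the 110 nearer ones. The 8 and the 40.3% therefore do not describe unmarked starts alone. Over the promoter window, Hcrt was thus called higher with 5 CpGs in its stretch, whereas Avp was called lower with 7. These are single genes. The enriched domain at the Hcrt start was 6000 bp long, and tiles of 2 kb do not place the mark within the printed bases.

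Pmch had the highest transcript level of the 30, at 8.03, 8.29, 8.11, 8.15 and 7.23 log2 RPKM. Its promoter held 0.253, 0.200 and 0.230 RPM of H3K4me3 against 0.408, 0.996 and 0.942 RPM of input. Every animal was below its own input, by −1.35 ± 0.35 log2 (SE, adjusted p = 0.000289 in limma). Relative to the median tile the difference was 0.35 (adjusted p = 0.357 in limma), so the promoter of Pmch was not told apart from the genome at large.

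Avp, the vasopressin gene, gave 0.126, 0.200 and 0.328 RPM against 1.05, 1.18 and 1.005 RPM of input at a transcript level of 6.32 log2 RPKM. The difference was −1.94 ± 0.33 log2 (SE) and −0.23 relative to the median tile (adjusted p = 0.538 in limma). The H3K4me3 and input values did not overlap, but the same holds for much of the genome, where input is higher.

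Oxt, the oxytocin gene, which lies beside Avp in the opposite orientation, stood between these and the marked genes. It gave 0.506, 0.665 and 0.624 RPM against 0.782, 1.07 and 0.816 RPM of input, a difference of −0.50 ± 0.30 log2 (SE, adjusted p = 0.105 in limma). Relative to the median tile it was higher by 1.21 log2 (adjusted p = 0.000227 in limma). With tiles taken within 1000 bp on either side of the start it was higher than input outright, by 0.76 log2. Oxt thus counts as without the mark only by the rule of at or below input, in the window used here.

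Hcrt, unlike these 3, was called higher than input. At 6.19 log2 RPKM its promoter held 2.56, 2.63 and 3.48 RPM against 0.816, 0.811 and 0.816 RPM of input, a difference of 1.70 ± 0.24 log2 (SE, adjusted p = 1.25e-09 in limma), with every animal above every input. Sst, the somatostatin gene, at 5.81 log2 RPKM, had 2.09, 1.73 and 3.12 RPM and was also called higher. Pomc, the melanocortin precursor of arcuate neurons, had 0.538, 0.865 and 0.263 RPM and was not called, though its difference relative to the median tile was 1.12 log2. An enriched tile lay further inside the Pomc gene, unlike at Pmch, Oxt and Avp.

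Vip and Npvf completed the 6 neuropeptide genes that were expressed with no more than input at the start. Of the others, Cartpt, Penk, Tac1, Cck, Gal, Pdyn, Nts, Crh, Ghrh, Agrp, Nmu and Prok2 were called higher, and Kiss1, Nms, Qrfp, Galp, Ucn3 and Gnrh1 lower. Trh and Tac2 were not called. The calls at Agrp, Tac2, Crh, Kiss1, Trh and Pomc turned with the processing, and with DESeq2 also those at Pmch and Vip. Crh was at 0.245 log2 in edgeR (adjusted p = 0.490), with 16, 15 and 19 reads against 13, 16 and 27 of input. Centring on the median tile moved further calls.

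**Figure D4:**
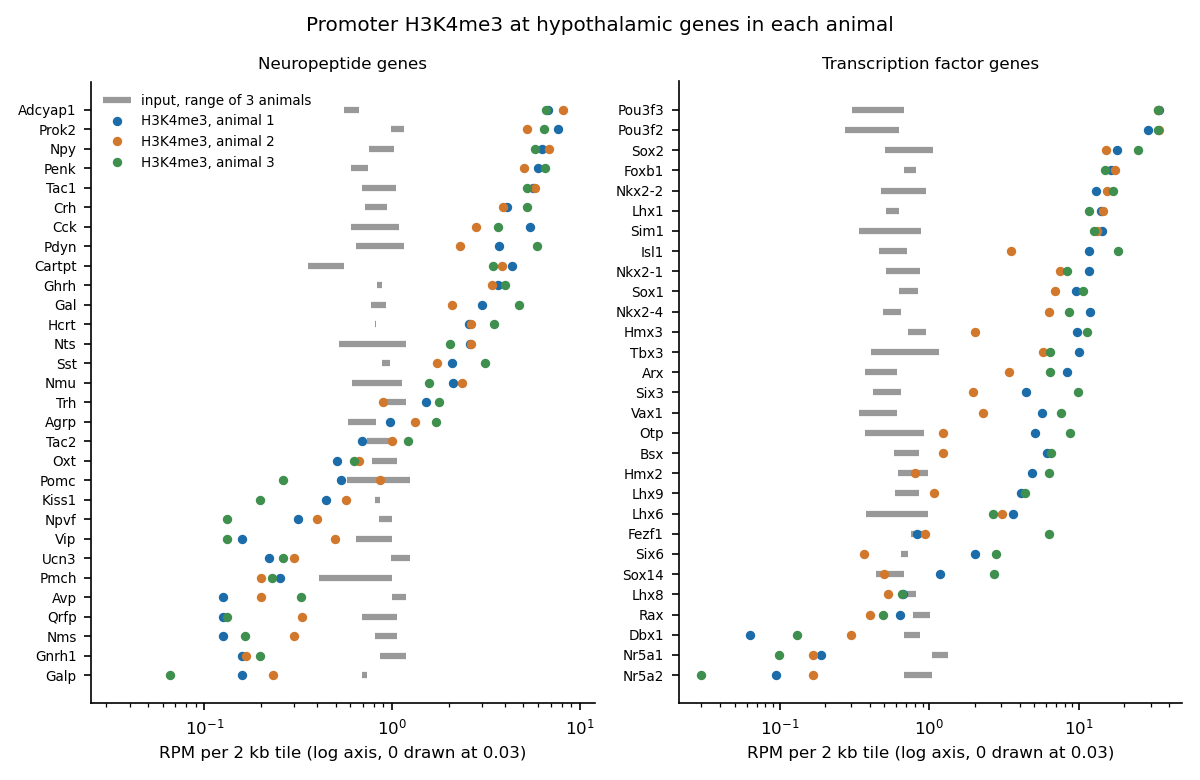
Promoter H3K4me3 in RPM on a log axis for neuropeptide genes (left) and hypothalamic transcription factor genes (right), one coloured point for each of the 3 animals and a grey bar for the range of their inputs. Pmch and Avp lie below their inputs, Hcrt, Npy and Adcyap1 above them, and the factors Hmx2, Otp, Bsx and Isl1 spread widely between animals.

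**Figure D5:**
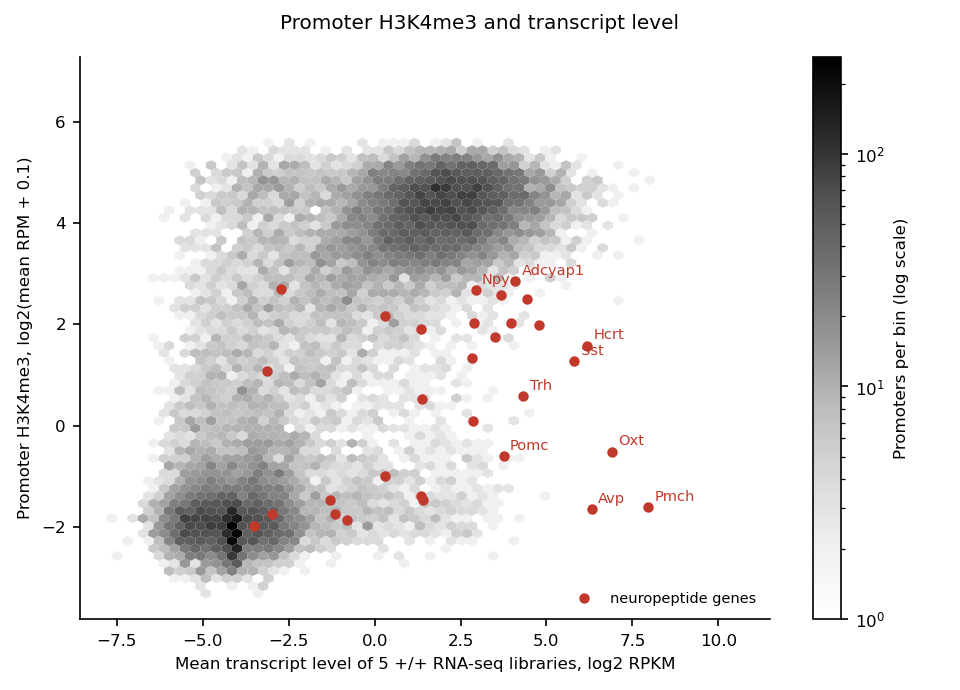
Promoter H3K4me3 as log2(mean RPM + 0.1) against the mean transcript level in log2 RPKM over 5 libraries, with the number of promoters per bin in grey and neuropeptide genes in red. Pmch, Avp and Oxt lie at the lower right, at 6.32 to 7.96 log2 RPKM and under 1 RPM, where few other promoters lie.

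Hypothalamic transcription factor genes were called higher at 24 of 30, against 60.4% over all promoters, with a median of 5.29 RPM and a median transcript level of 0.02 log2 RPKM. Their median H3K27me3 was 5.35 RPM, against 0.546 RPM over all promoters. Pou3f3 (34.1, 33.4 and 33.7 RPM) and Pou3f2 (28.8, 34.2 and 33.9 RPM) were the highest. Nr5a1, the steroidogenic factor of the ventromedial nucleus, had 0.190, 0.166 and 0.0985 RPM and was called lower, as were Nr5a2, Dbx1 and Rax.

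These genes also varied between animals. Over the 14057 promoters with 3 RPM or more in an animal, the median range between the 3 animals was 0.19 log2 and 130 (0.925%) had a range of 1 log2 or more. Among the 23 factor genes at that level the median range was 0.91 log2, and 11 of 23 had a range of 1 or more. Animal 2 was the lowest at 16 of the 23, a share like that over all promoters (9644 of 14057), and the summed level of the list was 263, 193 and 278 RPM. Otp, a factor of neuroendocrine neurons, had 5.09, 1.23 and 8.74 RPM. Bsx, of the arcuate and dorsomedial nuclei, had 6.13, 1.23 and 6.503 RPM. Isl1 had 11.5, 3.49 and 18.2 RPM, and Hmx2 4.81, 0.798 and 6.27 RPM. In each of these animal 2 was the low one, and all 4 were called higher than input.

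Genes of neighbouring brain regions did not follow this order of animals. They were looked up after the spread between animals had been seen. Fezf2, of cortical projection neurons, had 11.04, 2.46 and 3.78 RPM, and the summed level of 12 cortical and hippocampal neuron genes was 132, 103 and 106 RPM. Animal 1 was highest at these. Lmx1a (6.20, 19.4 and 6.63 RPM), a factor of the posterior hypothalamus and ventral midbrain, was highest in animal 2. Shox2 (1.68, 4.95 and 12.5 RPM) and Gbx2 (0.506, 0.732 and 3.94 RPM), factors of the thalamus, were highest in animal 3. Whether the pieces of tissue differed between the animals was not tested.

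The other gene groups are given by cell type and function, against 14860 of 24614 (60.4%) called higher over all promoters. Anterior pituitary genes, the defining markers of the neighbouring gland, were near the floor, with 0 of 10 called higher and 9 lower, a range of means from 0.139 to 0.551 RPM. In the RNA libraries, from other mice, Prl ranged from −3.04 to 3.29 log2 RPKM, Gh from −4.14 to 2.31 and Cga from −4.28 to 1.61. The rest of the list stayed below 0 log2 RPKM, and no member was expressed by the rule. Whether pituitary tissue was present in some RNA libraries was not tested. Neuronal and glial genes of the tissue were mostly called higher, as were 9812 of the 10406 expressed genes. Of pan-neuronal genes 16 of 17 were called higher, of GABA and glutamate neuron genes 16 of 18, of astrocyte genes 12 of 14 and of oligodendrocyte genes 14 of 14. Oligodendrocyte genes had a median of 12.3 RPM, for instance 16.3, 14.0 and 16.3 RPM at Mbp, a myelin protein. Aldh1l1, an astrocyte enzyme expressed at 2.78 log2 RPKM, had 0.506, 0.399 and 0.624 RPM and was called lower at its listed start, with its first enriched tile 63573 bp inside the gene.

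Markers of microglia, vessels, precursors and ventricular cells had lower medians. Microglia genes were called higher at 7 of 12 with a median of 1.503 RPM, among them Cx3cr1, the fractalkine receptor, at 2.37, 2.06 and 2.13 RPM. Endothelial and mural genes were called higher at 11 of 14 (3.55 RPM), oligodendrocyte precursor genes at 4 of 6 (3.04 RPM) and tanycyte and ependymal genes at 7 of 10 (6.03 RPM). Choroid plexus genes were called higher at 2 of 7 and erythroid genes at 2 of 6. Of the cortical and hippocampal genes 10 of 12 were called higher, with a median transcript level of −1.63 log2 RPKM.

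Housekeeping and early response genes were at the other end. Of all 10406 expressed genes, 9812 were called higher. Of cytosolic ribosomal protein genes 37 of 38 were called higher (median 18.9 RPM), the exception being Rps2 at 0.822, 0.765 and 0.460 RPM with an enriched tile 884 bp downstream, and of proteasome and glycolysis genes 24 of 27 (20.6 RPM). All 22 immediate early genes were called higher, with a median of 17.2 RPM, although only 14 were expressed by the rule. Of the H3K4 methylation writers and erasers 19 of 21 were called higher. The 5 MLL genes of the list were not matched by their current symbols and are not in this count. One of them, listed as Mll5, had 46.5, 44.7 and 50.1 RPM. The exceptions, Ash2l and Dpy30, which encode core subunits of the SET1 and MLL complexes, had the mark further inside the gene, 5694 and 6944 bp from the listed start. Of imprinted genes 16 of 21 were called higher. Mest and Grb10 had it 12453 and 10683 bp inside the gene, and H19 was not expressed. Usp29 and Igf2 had none in the listed gene or within 10 kb, though other starts of Usp29 were marked, as given above. Of long noncoding RNA genes 7 of 8 were called higher, and the 17 short noncoding transcripts looked for are not analysed here.

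Gene groups with no expressed member mostly lacked the mark, as did most genes under −3.3 log2 RPKM, of which 16.2% were called higher. Of the Hox genes, which pattern the hindbrain and spinal cord, 4 of 39 were called higher, and the median H3K27me3 was 6.68 RPM. Of the germline genes 1 of 17 was called higher, Dazl, with a mean of 1.76 RPM. Germline genes had a median H3K27me3 of 0.893 RPM, against 0.546 RPM over all promoters and 1.01 RPM over all genes under −3.3 log2 RPKM.

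H3K4me3 was also found where the transcript was not. Among the 8048 genes under −3.3 log2 RPKM, 1304 (16.2%) were called higher. In 190 of them the start of an expressed gene lay in the window, and these had a median of 25.7 RPM with H3K27me3 at 0.152 RPM. The other 1114 had a median of 4.41 RPM with H3K27me3 at 1.18 RPM, and 264 of them were at 10 RPM or more. Over all 8048 genes the median H3K27me3 was 1.01 RPM. The 1304 include 3 Y-linked genes, Eif2s3y, Uty and Ddx3y, whose lack of transcript goes with the sex of the RNA libraries. Of the 100 strongest, 63 shared the window with an expressed start. The 10 strongest were Trpm8, 2210417K05Rik, Gm15890, C030047K22Rik, Gm15477, D430040D24Rik, 4930426L09Rik, 4921530L18Rik, 3110009E18Rik and B230319C09Rik. In 7 of these the window held the start of an expressed gene, namely Hjurp, Cdh10, Atp8a1, Pip4k2a, Stam, Dbi and Tet3. H3K27me3 was at most 0.458 RPM at the 9 other than Trpm8, where it was 1.84 RPM.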

How the data were processed

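Native ChIP-seq libraries were made from a small part of each hypothalamus after MNase digestion, with a share kept as input. H3K4me3, H3K27me3, H3K36me3 and input of one number came from the same animal. The authors trimmed single-end reads with Trim Galore, aligned them to GRCm38 with Bowtie, and counted them in SeqMonk. The deposited ChIP signal is reads scaled to the library's uniquely mapped reads (RPM) in 2 kb tiles every 1 kb, with input not subtracted. For RNA-seq the authors deposited log2 RPKM per gene. The submitters' processing notes for the series also name Trim Galore 0.4.3 and HISAT2 2.0.5. Whole reads were recovered from the ChIP values within 0.01. The median autosomal tile held 2 to 3 reads in H3K4me3 and 12 to 21 in input, so single tiles outside domains are imprecise.

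A promoter was the mean of tiles centred from 1500 bp before to 500 bp after the listed start, and needed a mean input of 0.3 RPM. H3K4me3 and input were compared in limma 3.58.1 (R 4.3.3, with a mean trend) on log2(RPM + 0.1) with animal as a block, over all promoters, with Benjamini-Hochberg adjustment at 0.05. This understates changes of low values. Deviations of H3K4me3 and input from their group means had correlations of 0.01, −0.04 and −0.01 for animals 1, 2 and 3, and the pairing rests on the shared animal. The fit was tested on simulated data. A domain joined autosomal tiles at 4 times input or more (both + 0.1 RPM) in each animal, bridging 1 missing step. Expressed genes had 0 log2 RPKM or more in each of 5 libraries. Those without the mark were at or below input in each animal. CpG classes used 500 bp windows of the promoter (rich, observed over expected CpG of 0.75 and GC of 55% or more in a window; poor, under 0.48 in all). H3K27me3 shares its input with H3K4me3 and is given as a level only. Sequences were taken from RefSeq. Alternatives used edgeR 4.0.16 and DESeq2 1.42.0 on recovered reads, and TMM scaling was added after seeing the data. Python 3.11.15 did the rest.

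Genes named are the 10 strongest promoters, those starting in the 10 longest domains, the 10 most abundant expressed genes without the mark and the 10 of these with none nearby, the 10 strongest silent genes, and the members of the gene lists. Others are said to have been looked up afterwards. The members and lists were chosen with earlier results of these data known. Some members of the lists are counted in them but not reported here by name.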

Additional observations from a re-analysis of the deposited data

Results flagged for a closer look

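One library stood apart in one value. The transcript level of Pmch was 7.23 log2 RPKM in the lowest of the 5 +/+ RNA libraries, the second lowest was 8.03, the median 8.11 and the highest 8.29, and the gap of the lowest library was 0.755 of the whole range. Such a gap is expected by chance in about 1 of 20 groups. Pmch was expressed by the rule in all 5 libraries.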

How the results depend on the processing

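The promoter counts stayed within 1.5 times of 14860 higher and 8523 lower under all other pseudocounts, filters, windows and tests run, except that centring on the median tile gave 915 lower, with 16722 higher. TMM scaling, at 11511 higher and 11442 lower, was within that range but evened the split. Leaving out one animal gave 14754 to 14794 higher and 8186 to 8286 lower. Pairing made little difference, since the fit with no replicate block gave 14847 higher and 8486 lower. Tiles centred on the median gave 154351 higher and 24743 lower. There were 27685 domains after centring, and the number of 10 kb or longer was 924 at 2 times input, 136 at 8 times input and 1661 after centring. Of the 100 longest domains, 46 overlapped one of the 100 longest at 2 times input, 58 at 8 times input and 67 with no gap joined, so the ranking by length holds for the setting used. Leaving out one animal gave 16618 to 17081 domains. Expressed genes without the mark numbered 266 at or below 0.5 times input and 58 of 2111 with expression of 3 log2 RPKM or more, and 489 to 494 when one animal was left out. Why these counts moved was not tested, beyond what each setting changes by construction.

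Of 1304 pairs of a gene followed singly and a setting, 1219 kept direction and side of the threshold, 40 fell short of it, 16 newly passed it and 29 changed sign. Centring changed the sign for AC242409.1 (0.19), Ash2l (0.074), Clta (0.44), Gm10800 (1.003), Gm10801 (0.74), Gpx4 (0.47), Hsp90aa1 (1.19), Kiss1 (0.74), Lhx8 (1.46), Npvf (0.23), Oxt (1.21), Pmch (0.35), Pomc (1.12), Rax (0.96), Slc8a1 (0.25), Ucn3 (0.0046), Usp29 (0.081) and Vip (0.26). Tiles within 1000 bp on either side did so for Gpx4 (0.23), Lhx8 (0.20), Oxt (0.76) and Tac2 (−0.0301). With edgeR the values were −1.54 for Agrp, 0.36 for Oxt and −0.87 for Tac2, and with DESeq2 −1.61 for Agrp, 0.38 for Oxt and −0.92 for Tac2. Leaving out one animal gave −0.15 (without animal 3) to 0.43 for Tac2. The edgeR and DESeq2 values rest on 1 tile per promoter, the nearest to its middle.

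With 3 pairs an exact two-sided sign-flip test of one promoter cannot go below p = 0.25, so calls rest on the spread shared across promoters. Tiles, RPM and listed starts limit what is seen. A promoter that was not called may still differ from input by an amount too small for 3 animals. A start listed wrongly or a peak beside the window reads as an unmarked promoter, and H3K4me3 present in few cells can lie under the level that 2 to 3 reads per tile allow.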
